A study of Homo sapiens with 36 samples.

Results

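The response of ZR-75-1 cells to estradiol alone was taken from 8 of 36 bead arrays, the 4 labelled E2 and the 4 labelled VC, and was read across 12195 genes. ZR-75-1 is an established human breast cancer cell line of luminal type that carries the estrogen receptor and grows in response to estrogen. Cells of the E2 group received 10 nM estradiol and cells of the VC group ethanol, the solvent, alone. In both groups the cells had first spent 48 h in RPMI without phenol red, a weakly estrogenic dye, and with 10% serum stripped of hormones, and RNA was taken after 16 h of treatment. The remaining arrays held dihydrotestosterone (DHT), medroxyprogesterone acetate (MPA) or progesterone (PROG) alone, or E2 combined with them, 4 arrays a group. Of these, E2+DHT against DHT (10 nM DHT in both, 10 nM estradiol in the first) gave a second reading of the estradiol effect on 8 arrays that share none with E2 and VC. Whether replicates came from separate cultures is not stated, so that the p-values may reflect technical spread alone.

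Estradiol enters the cell and binds estrogen receptor alpha, a nuclear receptor that then acts as a transcription factor. The bound receptor pairs with itself on DNA at the estrogen response element, a palindrome of the arms GGTCA and TGACC with 3 letters between them, or is held at other sites by partner factors such as FOXA1, and most of its sites lie far from gene starts. In luminal breast cancer cells it is known for inducing the progesterone receptor, GREB1 and TFF1, for driving growth, and for lowering a second set of genes.

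The label of the cells was checked against marker genes. Of 26 luminal epithelial markers on the array, 24 were above background on all 8 arrays, among them ESR1 (the receptor itself), FOXA1, GATA3 and KRT18. Of 18 basal markers 9 were above background on all 8 arrays, while KRT5, KRT14, CAV1, VIM, MYLK and CNN1 were on none. Of 18 fibroblast markers 11 were on none, including COL1A2, COL3A1, LUM and FAP, while COL1A1, COL5A1, PDGFRA, FBLN1 and S100A4 were above background on all 8. Of 18 leukocyte and endothelial markers 8 were on none, including PTPRC, CD3E and CDH5, while CD14, CD68 and ESAM were on all 8, PECAM1 on 7 and VWF on 6. Androgen receptor was on the list of genes to be described and is not analysed here.

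A mean of 35.9% ± 1.05 (SD, n = 4) of probes were above background with E2 and 35.5% ± 1.71 (SD, n = 4) with VC, a difference of 0.471 percentage points at p = 0.657 in a two-sided exact permutation test whose smallest possible p is 0.0286. VC replicate 1 stood apart from the other VC arrays. On the component that held 49.4% of the variance between replicates it scored -53.8, against 42.2, 23.6 and -12 for VC replicates 2 to 4, and the E2 arrays scored -29.4, 23.3, -25.8 and 32.0. The arrays in columns 13 to 24 of the intensity table also moved together on that component, and include 2 of E2 and 1 of VC. The labels do not say what these columns share. Calls and list counts that changed without VC replicate 1 are given beside the results they touch.

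PDZK1, GREB1, HSPB8, KCNH1 and PGR were among the genes with the largest fitted rises with estradiol, and ADGRF1, CLEC3A, NRAD1 and COLEC12 among those with the largest fitted falls. Of these, PDZK1, GREB1, KCNH1, PGR, ADGRF1 and COLEC12 were below background on at least 1 array of the dimmer group, so that their size is only bounded. With E2, 145 genes were higher and 82 lower than with VC at an adjusted p under 0.05 (limma, Benjamini-Hochberg over all genes), together 1.86% of the genes tested, 1.19% higher and 0.672% lower. Of the 145, 87 rose by over 2-fold in the fit and 19 by over 4-fold, and 32 were above background on 0 VC arrays. Of the 82, 21 fell by over 2-fold and 0 by over 4-fold. The median difference was 1.12 (log2) among the higher genes and -0.82 among the lower ones, against -0.02 over all genes. The 4 E2 arrays did not overlap the 4 VC arrays in 133 of the 145 and 68 of the 82, where 2.45% of all genes were higher and 2.12% lower without overlap (4.57% in all). The calls rest on the same E2 and VC values, so a lack of overlap, here or in single genes below, is no separate evidence.

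The number of lower genes, and the balance of the directions, moved with single arrays. Without VC replicate 1, 127 genes were higher, 117 of them among the 145, and 35 were lower, 32 of them among the 82. Without VC replicate 2, which scored at the other end of that component, 555 genes passed, 300 higher and 255 lower. Without E2 replicate 2 there were 117 higher and 39 lower, without E2 replicate 4 124 and 40, and without E2 replicate 1 147 higher and 174 lower. With columns 13 to 24 as a block in the model, 746 genes were higher and 770 lower. Inside those columns, where VC has 1 array, 29 were higher and 1 lower, and outside them 602 and 673.

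**Figure D1:**
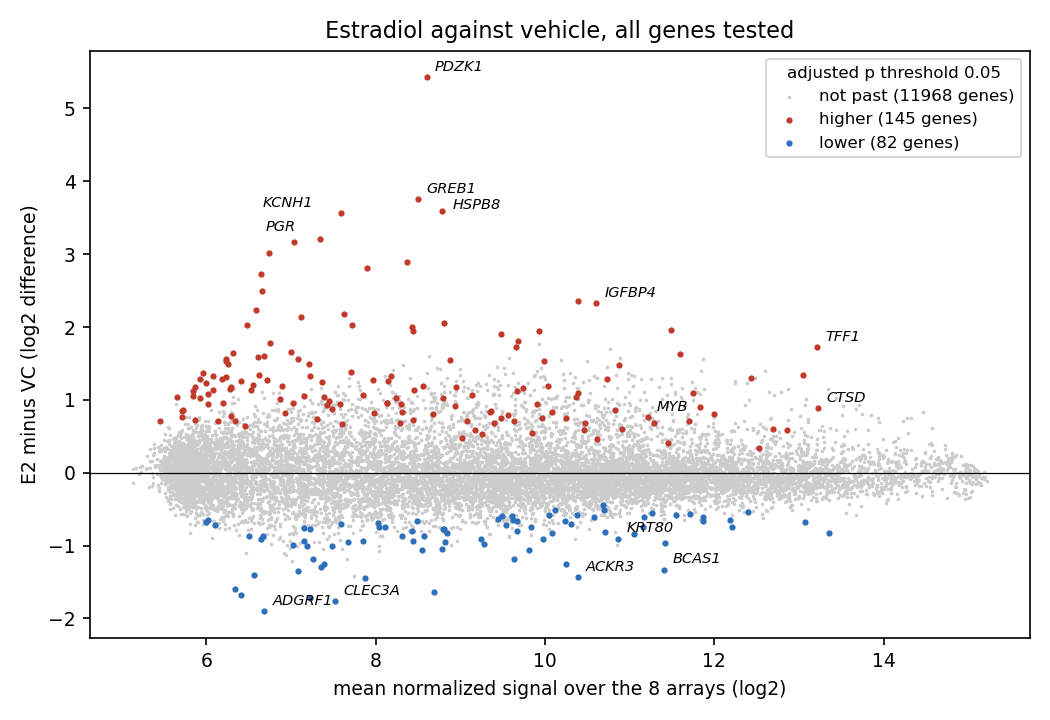
Each point is 1 of 12195 genes, with its mean normalized log2 signal over the 8 arrays on the horizontal axis and the log2 difference of E2 minus VC on the vertical axis. The 145 higher genes (red) reach 5.43 (PDZK1), and the 82 lower genes (blue) reach -1.90 (ADGRF1).

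The promoters of 5 higher genes are shown because they carry the letters that the receptor is known to read. They are the gene with the largest rise (PDZK1), the progesterone receptor (PGR), the chemokine CXCL12, the lysosomal protease cathepsin D (CTSD), and ADAMTSL5, the higher gene whose window came within 1 letter of a whole element. Where a gene has several windows, the one with the most such letters is shown. Each window runs 5′ to 3′ on the minus strand, from 250 bases before to 50 after the start of the gene (RefSeq, GRCh38.p14). Capitals mark GGTCA or TGACC, and in ADAMTSL5 the 13 letters nearest to a whole element.
PDZK1 chr1:145707319-145707618: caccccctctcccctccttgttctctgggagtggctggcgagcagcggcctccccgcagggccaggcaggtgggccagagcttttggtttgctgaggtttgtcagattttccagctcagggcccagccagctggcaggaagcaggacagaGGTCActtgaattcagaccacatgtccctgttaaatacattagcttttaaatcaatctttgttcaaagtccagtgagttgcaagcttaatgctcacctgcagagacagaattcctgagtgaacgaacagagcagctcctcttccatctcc
PGR chr11:101129014-101129313: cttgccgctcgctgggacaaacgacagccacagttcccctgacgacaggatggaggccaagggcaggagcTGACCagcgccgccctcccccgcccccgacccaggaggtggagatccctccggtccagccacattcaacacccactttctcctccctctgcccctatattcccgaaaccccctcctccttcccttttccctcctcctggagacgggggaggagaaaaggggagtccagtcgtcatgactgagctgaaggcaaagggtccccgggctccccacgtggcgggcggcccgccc
CXCL12 chr10:44385048-44385347: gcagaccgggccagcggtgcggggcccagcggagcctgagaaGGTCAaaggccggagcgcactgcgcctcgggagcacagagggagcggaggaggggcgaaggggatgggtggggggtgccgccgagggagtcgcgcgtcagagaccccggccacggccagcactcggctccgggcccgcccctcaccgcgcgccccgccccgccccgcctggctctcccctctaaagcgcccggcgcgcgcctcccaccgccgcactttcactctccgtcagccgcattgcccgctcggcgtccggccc
CTSD chr11:1763878-1764177: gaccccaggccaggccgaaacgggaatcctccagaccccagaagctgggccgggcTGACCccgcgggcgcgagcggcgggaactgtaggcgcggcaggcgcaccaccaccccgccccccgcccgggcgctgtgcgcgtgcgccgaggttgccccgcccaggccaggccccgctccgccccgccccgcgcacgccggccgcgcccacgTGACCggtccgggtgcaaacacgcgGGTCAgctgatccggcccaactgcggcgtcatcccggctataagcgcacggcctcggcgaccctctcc
ADAMTSL5 chr19:1512970-1513269: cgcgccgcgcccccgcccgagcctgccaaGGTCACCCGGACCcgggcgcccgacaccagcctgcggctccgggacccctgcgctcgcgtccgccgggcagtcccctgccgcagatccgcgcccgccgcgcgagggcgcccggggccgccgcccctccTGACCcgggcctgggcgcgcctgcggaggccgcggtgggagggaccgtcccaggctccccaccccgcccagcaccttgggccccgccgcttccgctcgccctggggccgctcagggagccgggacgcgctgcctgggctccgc

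Counted from the start of the gene, the first base of the arm lies at -100 in PDZK1, -180 in PGR and -208 in CXCL12, and CTSD holds 3, at -195, -43 and -18. ADAMTSL5 differs from the whole element by T9G, counted from 1 at the element's first letter, with its first base at -221. A promoter window was at hand for 106 of the 145 higher genes and 61 of the 82 lower ones, with several windows for some genes. The whole element, searched on both strands, was in 0 of the 106, 0 of the 61 and 3 of 9964 genes tested (0.0301%). With up to 1 letter changed, a search added after the first, it was in 1 of the 106 (0.943%), 0 of the 61 and 0.733% of genes tested. An arm alone, which the whole element contains, was in 47 of the 106 (44.3%), 23 of the 61 (37.7%) and 42.2% of genes tested. These counts describe letters in windows of 300 bases and nothing further from the gene.

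The largest rises were those of a membrane scaffold, a receptor cofactor, a chaperone, a potassium channel and the progesterone receptor. All values that follow are normalized log2 signals, in the order of replicates 1 to 4. PDZK1, a scaffold that holds transporters at the cell membrane, read 11.43, 11.15, 11.38 and 11.30 with E2 and 5.73, 5.98, 5.99 and 5.85 with VC. The 4 E2 arrays lay close together and far above every VC array, of which 1 was above background. The rise was at least 38.4-fold (adjusted p = 3.35e-23, limma), a bound taken with each VC array at no less than its lowest signal above background, as for every fold given as at least. Its 2 probes differed in size, at 5.43 and 3.17 (log2), and without the background step the difference of PDZK1 was 3.65.

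GREB1, an estrogen-induced cofactor of the receptor, read 10.74, 9.89, 10.39 and 10.49 with E2 and 7.05, 6.48, 6.84 and 6.10 with VC, at least 13.5-fold higher. This came from the brightest of its 3 probes, and the other 2 differed by 0.42 and -0.25 (log2), so that the mean of the probes rose by 1.31. PGR, the progesterone receptor, read 8.89, 9.15, 8.45 and 9.27 with E2 and 5.73, 5.88, 5.76 and 5.56 with VC, where 1 array was above background, so that it was at least 7.55-fold higher (adjusted p = 2.32e-11). Neither gene's groups overlapped. TFF1, a secreted trefoil peptide and a classic estrogen marker, read 14.38, 14.08, 14.21 and 13.65 with E2 and 11.70, 12.27, 12.53 and 12.90 with VC. It was already bright without hormone and rose 3.31-fold (adjusted p = 2.51e-05).

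HSPB8, a small heat shock protein that hands misfolded proteins to autophagy, read 9.85, 10.83, 10.45 and 11.20 with E2 and 6.33, 6.68, 7.21 and 7.71 with VC. It was above background on all 8 arrays, the groups did not overlap although each spanned over 1 log2 unit, and it rose 12.1-fold. TNNI2, the fast skeletal muscle form of troponin I, read 8.02, 8.81, 9.05 and 8.58 with E2 and was above background on 0 VC arrays, at least 6.03-fold higher. SUSD3, a membrane protein with a sushi domain, read 9.93, 9.68, 10.03 and 9.66 with E2 and 7.30, 6.65, 6.90 and 6.85 with VC, a rise of 7.46-fold. FCMR, the Fc receptor for IgM, rose 7.04-fold, with E2 arrays from 8.99 to 9.51 and VC arrays from 6.22 to 6.63.

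Several genes went from below background to measured levels. SPINK4, a serine protease inhibitor, PPP4R4, a subunit of protein phosphatase 4, the transcription factor SOX3 and the lysyl oxidase relative LOXL4 were above background on all 4 E2 arrays and on 0 VC arrays. They were at least 3.98-, 3.7-, 3.20- and 2.78-fold higher, and the second PPP4R4 probe differed by 0.52 (log2). CYP2B7P, a cytochrome P450 pseudogene, was at least 4.67-fold higher, and its probe may also read the closely similar CYP2B6. DEPTOR, an inhibitor of the mTOR kinase, was by contrast above background on 3 of the 4 VC arrays. It read 9.08, 8.44, 8.61 and 8.82 with E2 and 5.41, 7.46, 7.10 and 6.86 with VC, at least 3.62-fold higher, with VC replicate 1 the lowest.

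**Figure D2:**
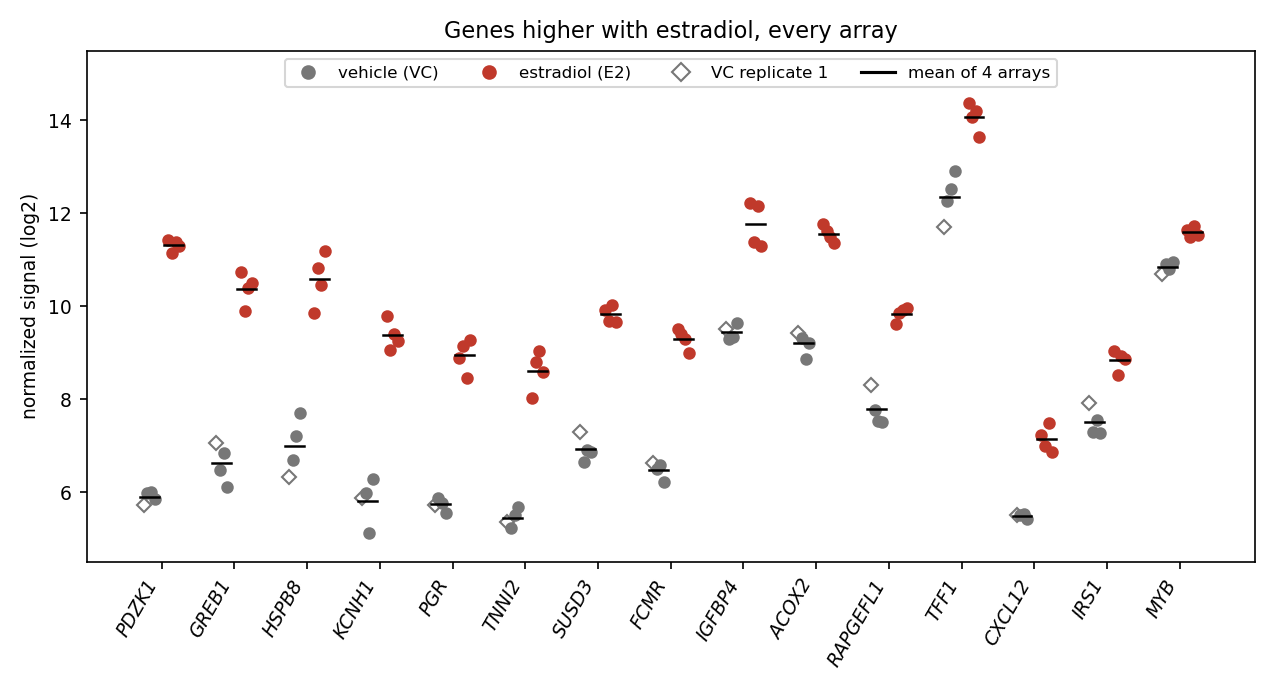
Normalized log2 signal of 15 higher genes on each of the 4 VC arrays (grey, VC replicate 1 as an open diamond) and the 4 E2 arrays (red), with a bar at each group's mean. In all 15 genes every E2 array lies above every VC array, but most of them were named by a rule that required this. VC replicate 1 is the lowest VC array in PDZK1 (5.73) and TFF1 (11.70) and the highest in SUSD3 (7.30).

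Of 55 measured genes known to be induced by estrogen 28 rose and 0 fell, where 1.19% of all genes rose and 0.672% fell, with a median difference of 0.76 against -0.02 over all genes, and 53 of the 55 were above 0. The gene lists here and below were chosen with earlier results of these data known, so their shares are descriptions and not tests. Without VC replicate 1, 27 rose and 0 fell, with CELSR2 no longer past the threshold. Beside those above, the risers included the adaptor IRS1, the transcription factor MYB, CTSD, SIAH2, RERG, CELSR2, OLFM1 and MAPT. SIAH2, a ubiquitin ligase, read 10.08, 9.94, 10.00 and 9.92 with E2 and 9.40, 9.09, 9.31 and 9.29 with VC, a rise of 1.64-fold in which the groups did not overlap. CTSD rose 1.85-fold, from 12.78 ± 0.22 to 13.67 ± 0.16 (SD, n = 4 each), and TIPARP, an ADP-ribosyltransferase that restrains the aryl hydrocarbon receptor, rose 2.78-fold.

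Of 13 measured genes of the insulin-like growth factor axis 3 rose and 0 fell, where 1.19% of all genes rose. Without VC replicate 1, 4 rose, with STC1, a stanniocalcin like STC2, added. IGFBP4, which binds the growth factors and keeps them from their receptor, read 12.22, 11.38, 12.16 and 11.29 with E2 and 9.50, 9.29, 9.33 and 9.63 with VC. Replicates 1 and 3 with E2 were the higher pair, both of them in columns 13 to 24, and all 4 lay above VC, a rise of 5.01-fold (adjusted p = 6.01e-07). IRS1, the adaptor that carries the receptor's signal inward, rose 2.51-fold, from 7.51 ± 0.30 to 8.84 ± 0.22 (SD, n = 4 each). STC2, a secreted inhibitor of the protease that cleaves IGFBP4, rose 2.25-fold. IGF1R, the receptor, differed by 0.24 (log2, adjusted p = 0.533).

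Of 24 measured ion channels and exchangers 6 rose and 0 fell, a share of 25% against 1.19% of all genes, and the same 6 rose without VC replicate 1. KCNH1, a voltage-gated potassium channel, read 9.80, 9.05, 9.40 and 9.26 with E2 and 5.88, 5.98, 5.12 and 6.27 with VC, of which 2 arrays were above background. It was at least 9.77-fold higher (adjusted p = 7.53e-15). CACNA1H, a T-type calcium channel, rose 2.39-fold, with VC replicate 1 at 8.25 close to the lowest E2 array at 8.44. CLIC6, a chloride channel protein, rose 1.73-fold. The potassium channel KCNK5, the channel subunit KCNE4 and KCNQ3, of the M-type potassium channel, were above background on 0 VC arrays and were at least 1.74-, 1.3- and 1.57-fold higher. KCNE4 lost its call without E2 replicate 4 (adjusted p = 0.066), and KCNQ3 in 6 of 22 alternatives.

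Among 23 measured genes of membrane scaffolds and cyclic AMP signalling 5 rose and 1 fell, where 1.19% of all genes rose and 0.672% fell. ADCY1, an adenylyl cyclase, read 10.90, 10.22, 10.54 and 10.67 with E2 and 9.24, 8.59, 8.71 and 8.59 with VC, a rise of 3.49-fold on which its 2 probes agreed (1.80 and 1.82, log2). RAPGEFL1, related to the exchange factors of the GTPase Rap, rose 4.14-fold. Of receptors that act on adenylyl cyclase through an inhibitory G protein, ADRA2A was at least 2.76-fold higher and SSTR2 rose 1.80-fold. PDE4D, which breaks cyclic AMP down, was 1.75-fold lower with overlapping groups, and lost its call without VC replicate 1 (adjusted p = 0.26) or 3 (0.0998) and without E2 replicate 2, 3 or 4 (0.188, 0.0855 and 0.0719). RAMP1, the partner that makes the calcitonin receptor-like receptor respond to CGRP, is outside that list and rose 3.86-fold.

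Of 31 measured genes of fatty acid synthesis and oxidation, ACOX2 and ELOVL2 rose and 0 fell, a share of 6.45% against 1.86% of all genes called in either direction. Without VC replicate 1 the desaturase FADS1 also rose. ACOX2, a peroxisomal oxidase of branched acyl chains, read 11.76, 11.62, 11.49 and 11.37 with E2 and 9.43, 9.32, 8.86 and 9.22 with VC, a rise of 5.12-fold in which the groups did not overlap. ELOVL2, an elongase of long fatty acids, was at least 1.89-fold higher with overlapping groups, and lost its call without E2 replicate 1 (adjusted p = 0.0581) or VC replicate 3 (0.0712). SLC7A2, a carrier of cationic amino acids, rose 1.52-fold, the only riser among 26 measured genes of amino acid transport and tRNA synthetases (3.85%). Of 26 genes of cholesterol synthesis and uptake 0 passed, and their median difference was 0.04.

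Other strong risers have roles in secretion, traffic and the cytoskeleton. SERPINA3, the secreted inhibitor alpha-1-antichymotrypsin, read 9.52, 9.42, 9.47 and 9.30 with E2 and 8.61, 7.17, 6.98 and 6.96 with VC, a rise of 3.99-fold. VC replicate 1 lay well above the other VC arrays and still below every E2 array. RAB31, a small GTPase of vesicle traffic, rose 3.90-fold, FGD3, an exchange factor for Cdc42, rose 3.87-fold, TSKU, a secreted leucine-rich protein, rose 3.74-fold, and CCN5, a matrix-associated protein, rose 3.32-fold. Among 23 measured genes of the actin and muscle-type cytoskeleton, TNNI2 and FHL2 rose and CORO2A and LIMA1 fell. Together they were 17.4% of the list, where 1.19% of all genes rose and 0.672% fell. LIMA1 lost its call without VC replicate 1 (adjusted p = 0.0644, limma). FHL2 lost its call without VC replicate 3 or 4 (adjusted p = 0.0899 and 0.116) or E2 replicate 2 or 4 (0.209 and 0.092), and LIMA1 without VC replicate 1 (0.0644).

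The genes that fell include membrane receptors, lectins, a monoamine oxidase and epithelial transcription factors, and 32 of the 82 were also called without VC replicate 1. ADGRF1, an adhesion G protein-coupled receptor, read 5.69, 5.77, 6.01 and 5.46 with E2 and 8.26, 7.11, 7.79 and 7.39 with VC. It was above background on 0 E2 arrays with the probe used and at least 3.15-fold lower (adjusted p = 9.46e-06), and its 3 probes differed by -1.90 to -0.35 (log2). COLEC12, a scavenger receptor with a collagen stalk, read 5.82, 5.61, 5.42 and 5.41 with E2 and 7.55, 7.29, 7.15 and 7.01 with VC, at least 2.41-fold lower. Neither gene's groups overlapped. In bulk RNA, fewer cells that express a gene and less RNA per cell cannot be told apart.

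CLEC3A, a C-type lectin, read 6.97, 6.42, 6.94 and 6.24 with E2 and 9.44, 7.96, 8.20 and 8.01 with VC, where replicate 1 stood above the rest. It was 3.39-fold lower on the probe used and differed by -0.19 (log2) on its other probe. NRAD1, a long noncoding RNA, read 6.66, 6.30, 6.16 and 6.34 with E2 and 8.84, 7.72, 7.84 and 7.93 with VC, again with VC replicate 1 the highest, and was 3.29-fold lower. PGM5, a phosphoglucomutase relative of cell junctions, read 8.03, 7.99, 7.96 and 7.52 with E2 and 9.81, 9.28, 9.43 and 9.52 with VC. It was 3.10-fold lower, and its 3 probes fell together, with differences from -2.17 to -1.63 (log2).

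ACKR3, a scavenging receptor for the chemokine CXCL12, read 9.43, 10.07, 9.19 and 9.98 with E2 and 10.99, 11.30, 11.25 and 10.86 with VC, 2.70-fold lower (adjusted p = 4.28e-05). Its VC replicate 1 lay among the other VC arrays. CXCL12 itself went the other way, at 7.24, 6.99, 7.48 and 6.85 with E2 and 5.50, 5.51, 5.53 and 5.43 with VC. It was above background on 0 VC arrays and at least 2.18-fold higher, and its second probe differed by 1.17 (log2). MAOA, a mitochondrial monoamine oxidase, read 6.41, 5.51, 5.59 and 5.93 with E2 and 7.43, 7.26, 6.94 and 7.41 with VC, at least 2.24-fold lower. VGLL1, a cofactor of TEAD transcription factors, was 2.27-fold lower and TRIB2, a pseudokinase, 2.09-fold.

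Genes of retinoid response split. RARA, the retinoic acid receptor alpha, rose 1.75-fold on the probe used, with E2 arrays from 12.19 to 12.76 and VC arrays from 11.34 to 11.93, while its second probe differed by -0.55 (log2) and the mean of both lost the call. RARRES1, a gene named for its induction by retinoids, read 5.74, 5.48, 5.42 and 5.54 with E2, below background on all 4, and 7.55, 7.42, 6.43 and 7.14 with VC, at least 2.23-fold lower. DHRS3, which reduces retinal back to retinol, was 1.77-fold lower. No other of the 17 measured members passed, and the median difference of the list was -0.04. The called members were 17.6% of the list, against 1.86% of all genes. Without VC replicate 1 the same 3 passed. GPRC5A, an orphan receptor known to be induced by retinoic acid and outside the list, read 6.66, 6.56, 7.01 and 6.61 with E2 and 8.26, 7.49, 8.13 and 8.13 with VC, 2.45-fold lower.

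Luminal markers did not move together. Of 26 measured, TFF1 and MYB rose and EHF and ELF3, both epithelial transcription factors of the ETS family, fell. Together they were 15.4% of the list, where 1.86% of all genes were called, 1.19% higher and 0.672% lower. MYB read 11.64, 11.49, 11.72 and 11.54 with E2 and 10.69, 10.91, 10.81 and 10.95 with VC, a rise of 1.70-fold without overlap. ELF3 read 12.90, 12.62, 12.78 and 12.62 with E2 and 13.62, 13.18, 13.36 and 13.48 with VC, 1.60-fold lower. EHF read 10.05, 8.92, 9.70 and 9.82 with E2 and 11.59, 10.45, 11.15 and 10.32 with VC, 2.38-fold lower (adjusted p = 0.00666), and lost its call without VC replicate 1 (0.0658) or E2 replicate 2 (0.0706). KRT80, a type II keratin outside the list, was 1.87-fold lower on 1 probe and differed by 0.63 (log2) on the other, and their mean lost the call. Of 13 measured basal markers only ANXA1, a phospholipid-binding annexin, passed (7.69%), with a rise of 1.94-fold.

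**Figure D3:**
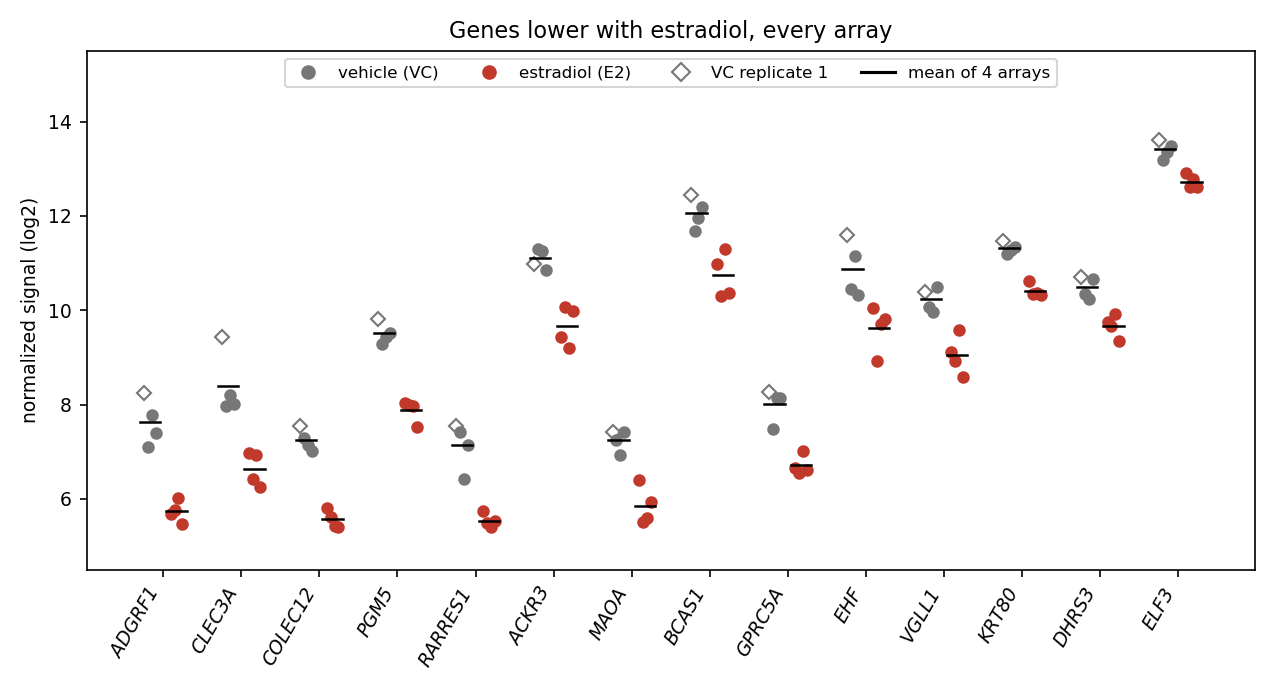
Normalized log2 signal of 14 lower genes on each of the 4 VC arrays (grey, VC replicate 1 as an open diamond) and the 4 E2 arrays (red), with a bar at each group's mean. In all 14 genes every E2 array lies below every VC array, but most of them were named by a rule that required this. VC replicate 1 is the highest VC array in CLEC3A (9.44) and EHF (11.59) and lies among the others in ACKR3 (10.99).

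Of 32 measured genes known from other estrogen-responsive cells to be lowered by estrogen, 2 fell (6.25%) and 0 rose, where 0.672% of all genes fell. These were BCAS1, a gene amplified in some breast cancers, 2.52-fold lower with 10.98, 10.31, 11.30 and 10.37 with E2 and 12.44, 11.69, 11.97 and 12.20 with VC, and EFEMP1, an extracellular fibulin, 1.68-fold lower. EFEMP1 lost its call without VC replicate 1 or 3 (adjusted p = 0.267 and 0.052) and without E2 replicate 2 or 4 (0.162 and 0.131). SCUBE2, a secreted membrane-associated protein, passed as higher without VC replicate 1. The list's median was -0.18, against -0.02 over all genes. Of the 32, 12 differed by more than 0, as did 5710 of all 12195 genes. ERBB2, the receptor tyrosine kinase, differed by -0.55 (log2, adjusted p = 0.111), and BMF, a proapoptotic protein, by -0.75 (adjusted p = 0.076).

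Of 43 measured genes of G1/S and DNA replication 0 rose and 1 fell after 16 h of estradiol (2.33%), and of 38 of G2/M and mitosis 0 passed, shares near the 1.86% of all genes. The first list's median was 0.13 with 30 of 43 above 0, and the second's 0.02. The 1 that fell, CLSPN, a checkpoint mediator at replication forks, read 5.70, 5.80, 5.76 and 5.73 with E2, below background on all 4, and 6.92, 6.04, 6.56 and 6.32 with VC. It was at least 1.4-fold lower at an adjusted p of 0.0478, its second probe differed by 0.12 (log2), and it lost its call without VC replicate 1 or 3 or any 1 E2 array (adjusted p from 0.0722 to 0.298). CCND1, cyclin D1, read 14.96, 14.50, 14.65 and 14.72 with E2 and 14.75, 14.37, 14.42 and 14.55 with VC, with overlapping groups (adjusted p = 0.436). MYC differed by 0.13 (log2, adjusted p = 0.688), with 1.01 on its second probe. Of 35 genes of ribosome biogenesis linked to MYC 0 passed.

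The receptor and its partners showed no called difference. ESR1 read 11.19, 11.04, 11.06 and 11.13 with E2 and 9.82, 11.13, 11.11 and 11.02 with VC, so that VC replicate 1 alone was low and the other 3 lay among the E2 arrays (difference 0.34, adjusted p = 0.34). FOXA1, the pioneer factor that opens the receptor's sites, differed by 0.14 and GATA3 by -0.14 (log2). NRIP1, a corepressor, differed by 0.29 (adjusted p = 0.272), and FKBP5, a chaperone known as a target of other steroid receptors, by 0.08. XBP1, a stress-response factor, differed by 0.21, with -0.09 on its second probe. BCL2, an inhibitor of apoptosis, differed by 0.23, with 0.50 and -0.29 on its other probes. Of 34 measured receptors and coregulators only PGR passed (2.94%, where 1.86% of all genes were called). FOXA1, MYC, BCL2 and FKBP5 changed sign in some settings, always without a call.

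Counts were also 0 in both directions in the lists of ERBB receptors and ligands (15 measured), TGF-beta and BMP signalling (21), the unfolded protein and stress response (24), the interferon response and antigen presentation (21), housekeeping genes (21), fibroblast and stromal markers (7) and leukocyte and endothelial markers (8). The medians of these lists lay between -0.13 and 0.08. A count of 0 here comes from limma over all genes, of which 1979 had an unadjusted p under 0.05. HSPB8 was the 1 riser among 23 apoptosis regulators, SLC2A3, a glucose transporter, among 29 genes of hypoxia and glycolysis, and TIPARP among 26 of steroid and xenobiotic metabolism. SLC2A3 read 6.60 on VC replicate 1 and 7.45 to 7.50 on VC replicates 2 to 4, and lost its call without that array (adjusted p = 0.251) and without E2 replicate 1, 3 or 4 (0.0673, 0.0976 and 0.0581). Over the 26 lists, 50 of 606 measured members passed, 40 higher and 10 lower. With 1.86% of all genes called, counts of 0 or 1 in lists of these sizes are near the share over all genes.

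**Figure D4:**
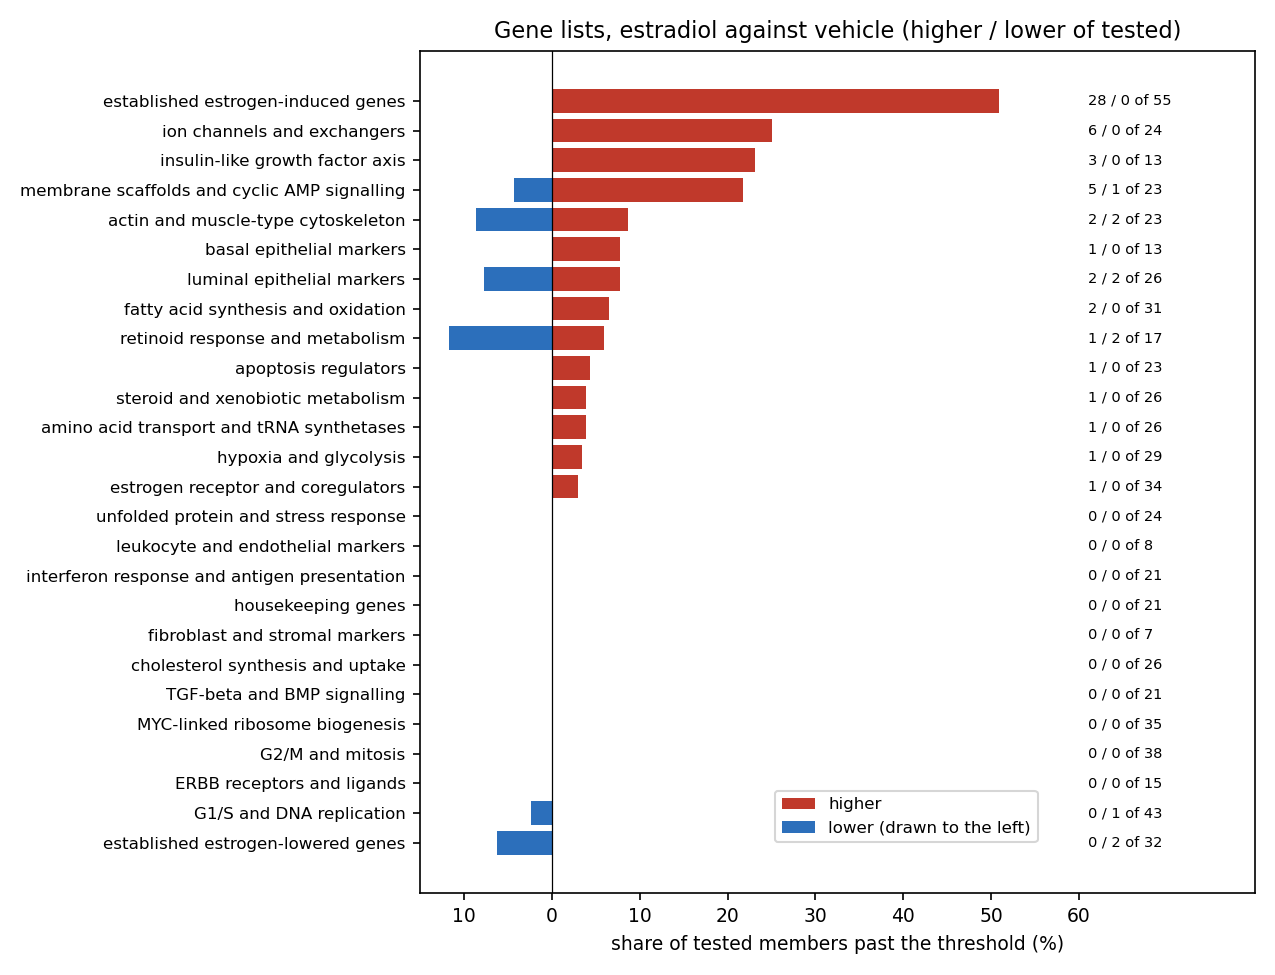
Share of each gene list's measured members that were higher (red, to the right) or lower (blue, to the left) with E2 than with VC, in percent, with the counts printed at the right. The established estrogen-induced genes reach the furthest right (28 of 55), and the ion channels (6 of 24) and the insulin-like growth factor axis (3 of 13) follow. The lists were chosen with earlier results of these data known, and no list was tested.

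Group means over the other treatments are given as levels, with no test. PDZK1 had group means of 5.50 with DHT, 5.55 with MPA and 5.90 with PROG, against 5.89 with VC. With estradiol it had means of 11.31 for E2 alone, 10.51 for E2+MPA, 10.11 for E2+PROG and 11.14 for the group written E2s+PROG, with SDs from 0.10 to 0.27 (n = 4 each), and E2+DHT lay just under E2 alone. KCNH1 had means of 5.36 to 5.50 with the other steroids alone, 9.38 with E2, 8.96 with E2+DHT, 7.79 with E2+MPA and 7.29 with E2+PROG. PGR had a mean of 8.94 with E2, 8.26 with E2+DHT, 6.97 with E2+MPA and 7.39 with E2+PROG. The labels give no estradiol dose for the groups with MPA or PROG, and no test was made between them and E2.

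ACKR3 had means from 10.74 to 11.60 in the 4 groups without estradiol and from 8.91 to 9.79 in the 5 with it. RARRES1 had means from 5.47 to 5.60 in the 5 groups with estradiol and from 6.38 to 7.13 in the 4 without it. KRT80, at 11.32 ± 0.12 with VC and 10.41 ± 0.14 with E2, had a mean of 11.38 ± 0.24 with E2+MPA and 12.26 ± 0.05 with E2+PROG (SD, n = 4 each). EHF, at 9.63 with E2, had means of 11.09 with E2+DHT and 11.41 with E2+MPA, against 10.88 with VC. CLEC3A had lower means than VC (8.40) in every other group, 6.66 with MPA alone among them.

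Most of the higher genes were also higher with estradiol when DHT was in both arms. In E2+DHT against DHT 122 genes were higher and 40 lower, together 1.33% of genes tested, 1% higher and 0.328% lower. Of the 145 genes higher with E2 alone, 93 were also higher here, which is 64.1% of the 145 and 76.2% of the 122, and 144 of the 145 had the same sign. Of the 82 lower genes, 25 were also lower, 30.5% of the 82 and 62.5% of the 40, and 73 had the same sign. A total of 0 were called in opposite directions. The median difference of the 145 was 1.12 with E2 alone and 0.93 beside DHT, and that of the 82 was -0.82 and -0.44. The 227 genes were chosen for passing in E2 against VC, not for their difference in E2+DHT against DHT. That choice alone can make their median differences smaller beside DHT, so the medians do not measure a weaker effect there. The E2+DHT and DHT arrays still entered the choice, because all arrays shared the normalization, the probe filter and the variance of the model. The overlap is therefore not an independent replication. With the E2 and VC arrays alone in the fit, 67 genes passed.

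Leaving out VC replicate 1, 91 of 127 higher genes (71.7%) and 19 of 35 lower genes (54.3%) were called the same way beside DHT. Leaving out VC replicate 2, these were 94 of 300 (31.3%) and 27 of 255 (10.6%). Columns 13 to 24 hold 3 of the 4 DHT arrays and 1 of the 4 E2+DHT arrays.

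The strongest risers passed in both settings. PDZK1 was at least 38.4-fold higher with E2 alone, and beside DHT read from 10.90 to 11.15 with E2+DHT and from 5.31 to 5.69 with DHT, where 0 arrays were above background. KCNH1 was at least 9.77- and 7.32-fold higher, TNNI2 at least 6.03- and 6.96-fold, and PGR at least 7.55- and 4.51-fold. The folds given as at least are bounds, since VC and DHT arrays lay below background, and their sizes cannot be set against each other. HSPB8, above background on all VC and DHT arrays, rose by 3.60 (log2) and 3.27. Among lower genes, ADGRF1 was at least 3.15- and 3.92-fold lower, and PGM5 differed by -1.63 and -1.77, ACKR3 by -1.43 and -1.83 and DHRS3 by -0.82 and -1.03, each past the threshold in both. EHF differed by -1.25 and -0.35, YPEL2, of a conserved zinc-binding family, by -1.25 and -0.40, and TSPAN12, a tetraspanin whose second probe went the other way, by -1.19 and -0.27, each without a call beside DHT. The interaction test called no difference between the settings in any gene of this paragraph.

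**Figure D5:**
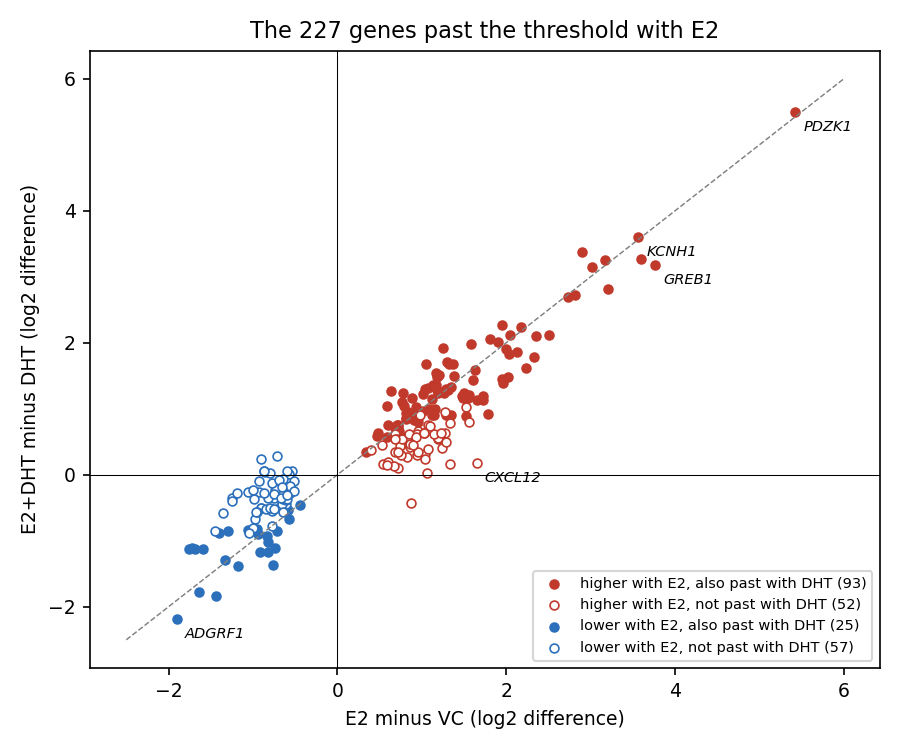
Each point is 1 of the 227 genes past the threshold with E2, with its log2 difference of E2 minus VC on the horizontal axis and of E2+DHT minus DHT on the vertical axis, and a dashed line where both are equal. Filled points (93 red, 25 blue) passed in the same direction in both, and CXCL12 lies at 1.65 on the first axis and 0.17 on the second.

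Of all genes, 1 passed the interaction test (0.0082%), CXCL12, and 667 had an unadjusted p under 0.05. Its E2+DHT arrays had a mean of 5.90 ± 0.14 and its DHT arrays of 5.72 ± 0.51 (SD, n = 4 each), against 7.14 ± 0.28 with E2 and 5.49 ± 0.04 with VC. The estradiol effect was smaller beside DHT, with an interaction of -1.47 (log2) with a 95% interval from -1.99 to -0.95 (adjusted p = 0.028, limma). It kept this sign in all 29 alternatives that gave a value, between -1.69 and -0.578, and passed the threshold in 6 of them. Leaving out any 1 of the 4 VC arrays ended the call, at adjusted p from 0.0661 to 0.0934. Its means were 5.61 with E2+MPA, 5.72 with E2+PROG and 6.11 with E2s+PROG, and the levels of all groups but E2 were near background. An interaction has no bound for values at background.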

How the data were processed

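Total RNA of ZR-75-1 cells was labelled with biotin for Illumina bead arrays (labels' protocols). A table of unnormalized probe intensity was deposited, with a detection p-value for each probe and array, per the file headers, and a processed intensity table, which was used as an alternative and was a straight line of the first on each array. Tools that made them are not given in the sources used here.

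All 36 arrays were normalized with limma (version 3.58.1, under R 4.3.3) by neqc with background from the detection p-values, an offset of 16, quantile normalization and log2. Probes with a detection p under 0.05 on at least 4 arrays were kept (21116 of 48803). Symbols are those of the platform annotation, where 27578 probes carry 1 symbol, and 27541 of these were found in the RefSeq gene table. The brightest probe on average stood for each of 12195 genes. Per-array values are normalized log2 signals, and the number of arrays limits their precision. A model with 1 mean per group and 27 residual degrees of freedom was fitted to all arrays, with Benjamini-Hochberg adjustment over all genes at 0.05. Where the probe used was above background on under 4 arrays of the dimmer group, each of those arrays was taken at no less than its lowest signal above background, and the fold is given as at least. On simulated data the fit recovered 77% of 100 log2 changes of 1 and 99% of 100 of 2 among 12195 genes, with 4 false calls. The simulated noise was independent between arrays and genes. It lacked the shared component that held 49.4% of the variance between replicates, so these rates do not carry over to the real arrays.

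Members, lists and tests were chosen with earlier results of these data known. Genes were named by rule: in each direction the 30 largest differences among called genes whose arrays did not overlap, up to 8 called members per list, and 20 fixed genes, 1 of which is not analysed here, which gave 95 genes. IGF1R, ERBB2, BMF, SCUBE2, RERG, CELSR2, OLFM1 and MAPT are outside it and were named after their values were seen. Alternatives covered background and scaling, the dim-probe filter, several probes per gene, the arrays in the fit, blocks, array weights and each array left out.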

Additional observations from a re-analysis of the deposited data

Results flagged for a closer look

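In 134 groups of 4 arrays, over the genes described, 9 had an array whose gap to the nearest other array took up most of the group's range (above Dixon's 95% critical value), as chance gives in about 5% of groups. Of these, 5 were VC replicate 1. It read 8.609 for SERPINA3 (other VC arrays 6.964 to 7.17), 9.442 for CLEC3A (7.963 to 8.203), 11.76 for MYC (11.4 to 11.44), 9.74 for TIPARP (10.22 to 10.3) and 9.824 for ESR1 (11.02 to 11.13), all normalized log2 signals. VC replicate 2 read 7.493 for GPRC5A (8.134 to 8.259). E2 replicate 4 read 6.708 for KCNE4 (6.271 to 6.335) and 7.525 for PGM5 (7.963 to 8.026), and E2 replicate 1 read 8.293 for PPP4R4 (7.75 to 7.836).

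The estradiol effect on CXCL12 differed with DHT, by -1.47 (log2) in a test of the difference itself. This passed the threshold in only 6 of 29 alternatives, and not with any 1 VC array left out. The levels of all groups but E2 were near background, so the size is uncertain.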

How the results depend on the processing

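The count of 227 genes (63.9% of them higher) lay between 164 (75th percentile scaling) and 245 (the authors' processed values) over the other scalings and filters, with 59.7% to 68.9% higher, was 249 with the mean of probes, and lay between 156 and 555 with each array left out, with 45.8% (without E2 replicate 1) to 78.4% (without VC replicate 1) higher. It was 67 (85.1% higher) with the 8 arrays alone, 1516 (49.2%) with columns 13 to 24 as a block, 1282 (49.1%) with 3 sets of 12 columns, 378 (61.1%) with the block and without VC replicate 1, 30 inside and 1275 (47.2%) outside those columns, and 835 (43.6%) with array weights. The 50 called list members became 24, 123 and 115, with 13 inside and 94 outside the columns and 82 with array weights, and 43 to 71 with each array left out. The 86 called of 95 named genes became 45 with the 8 arrays alone and 26 inside the columns, and 74 to 86 with each array left out.

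The deviations of same-numbered E2 and VC arrays correlated at 0.503, 0.575, -0.458 and -0.460. Those of same-numbered E2+DHT and DHT arrays correlated at 0.502, -0.187, 0.350 and -0.169. With such mixed values, and a component shared by many arrays, whether replicate numbers pair the samples could not be judged. A replicate block with the groups compared alone left 33 genes, 15 list members and 30 named genes, 80 genes for E2+DHT against DHT and 0 interactions.

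E2+DHT against DHT (162 genes) gave 92 with its 8 arrays alone, 256 with the block and without VC replicate 1, 39 inside and 71 outside the columns, 1565 with array weights, and 122 to 228 with each array left out. The interaction count of 1 became 0 in 10 further settings, 2 with array weights, and 0 to 2 with each array left out. The 2 genes with array weights, and the 1 called outside the columns, had a positive interaction and were not CXCL12. The share of probes above background differed by 0.471, and by 0.029 to 1.28 with each array left out. The sign turned for uncalled genes only. These were MYC at -0.1404, BCL2 at -0.05181 and FKBP5 at -0.146 outside the columns, FKBP5 at -0.04964 without E2 replicate 1 (up to 0.1797 with other arrays left out), and FOXA1 at -0.005845 without VC replicate 1 (up to 0.2482) and -0.01114 with the block as well. Of 2082 named-gene values tried, 1838 kept direction and call, 237 lost the call, 1 gained it and 6 turned. The causes were not tested.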
